A study of Mus musculus with 19 samples.

Results

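Sirtuins are enzymes that remove acetyl and other acyl groups from proteins and consume NAD in doing so, and the supply of NAD is set by enzymes that rebuild it from nicotinamide or make it from tryptophan. Sirt1 acts mainly in the nucleus, Sirt2 mainly in the cytosol, Sirt3 and Sirt5 in mitochondria, Sirt6 at chromatin and Sirt7 in the nucleolus. Nampt and Nmnat1 catalyse consecutive steps of NAD salvage, Qprt the step that joins the tryptophan route to NAD synthesis, and Nnmt methylates nicotinamide and so withdraws it from salvage. Kidney tubules are rich in mitochondria and hold much of the tryptophan route, and fasting is known to engage sirtuins in other tissues.

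These 10 genes were followed in kidney RNA of 19 male mice, each measured on its own Affymetrix HT MG-430 PM array. Aged mice were FVB-C57BL/6J F1 hybrids, 73 weeks old and about 47 g on average, of which 5 were fasted and 5 fed ad libitum. Young mice were C57BL/6J, 10 to 14 weeks old and 22 to 25 g, of which 4 were fasted and 5 fed ad libitum. Fasting lasted 3 days with free access to water, no mouse underwent renal ischemia, and each RNA came from parts of both kidneys. Age, strain and body weight therefore changed together and cannot be told apart. Members were all probe sets that the annotation assigned to 1 of the 10 genes alone, which gave 7 of the 45141 probe sets on the array, for 6 of the 10 genes. Sirt5 had 2 such probe sets and Sirt1, Sirt3, Sirt7, Nmnat1 and Nnmt had 1 each. Another 4 probe sets named a sirtuin together with a second gene, among them the only one for Sirt2, and are given apart. Sirt6, Nampt and Qprt were not analysed here.

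Values are log2 levels from one deposited table. Array medians ran from 3.46 to 3.49 for aged fasted, 3.44 to 3.48 for aged ad libitum fed, 4.18 to 4.21 for young fasted and 4.15 to 4.19 for young ad libitum fed mice. Levels were for this reason compared between diets within an age only. Arrays of one group correlated at 0.988 to 0.997 over all probe sets. The 7 measured of 10 kidney tubule and glomerulus markers had a median level between 11.3 and 12.0 on every array, and some of them fell with fasting. Liver markers were uneven, with a list median of 10.7 in aged fasted mouse 33 and of 8.62 in young fasted mouse 339, the highest array of its group. A fold change is fasted over ad libitum fed. A probe set is said to have changed at a limma p of at most 0.05 after Benjamini-Hochberg adjustment over all probe sets, and 1.5-fold marks the larger changes. The number of mice, 4 or 5 per group, limits the precision, and in whole kidney fewer cells of a type and less RNA per cell cannot be told apart.

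The sequences before 3 sirtuin genes are shown because their probe sets changed and because the start sites of Sirt3 and Sirt7 lie close to other genes, which share some probe sets with them. They are from RefSeq on the GRCm38.p6 build, run 5′ to 3′ on the gene's own strand and end at the base before the annotated start. Capitals mark the E-box CACGTG, a palindrome bound by several basic helix-loop-helix factors. Sirt1 is shown with its 250 upstream bases, chr10:63339036-63339285 on the minus strand. Sirt3 is shown with the 84 bases between its start and that of the divergent gene Psmd13, a proteasome subunit, chr7:140882310-140882393 on the minus strand. Sirt7 is shown with the 102 bases between its start and the end of the upstream gene Mafg, a small Maf transcription factor, chr11:120625015-120625116 on the minus strand.
Sirt1: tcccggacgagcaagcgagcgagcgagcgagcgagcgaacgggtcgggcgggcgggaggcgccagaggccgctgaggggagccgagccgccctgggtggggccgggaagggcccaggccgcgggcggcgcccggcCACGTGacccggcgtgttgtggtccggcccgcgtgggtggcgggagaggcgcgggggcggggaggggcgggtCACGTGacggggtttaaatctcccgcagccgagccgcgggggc
Sirt3: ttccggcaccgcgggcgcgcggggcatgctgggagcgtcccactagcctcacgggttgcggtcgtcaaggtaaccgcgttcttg
Sirt7: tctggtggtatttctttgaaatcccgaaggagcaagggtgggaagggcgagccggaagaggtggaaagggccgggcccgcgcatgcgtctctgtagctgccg
The E-box stands in the Sirt1 window 2 times, beginning 115 and 43 bases before the start, and 6.02% of the 32851 RefSeq windows of 250 bases before a gene start hold at least 1. The half-site AAGGTCA of estrogen-related receptors, searched on both strands, occurred in the window of Sirt5, 165 bases before its start, and in 4.08% of all windows. The forkhead motif GTAAACA, found in 3.17% of windows, and the cAMP response element TGACGTCA, found in 1.55%, matched none of the windows of the listed genes. All windows were searched on both strands, and none was available for Nnmt. A match describes letters only and is not a binding site.

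In aged kidneys Sirt1 rose and Sirt7 fell with fasting, each by less than 1.5-fold, and the other 5 probe sets did not pass the test. Of the 7 probe sets, 1 rose, as did 3.16% of all probe sets in aged kidneys, and 1 fell, as did 3.32% of all. None reached 1.5-fold, which 1.89% of all probe sets did. Sirt1 and Sirt7 were also the 2 that separated the diets with no overlap between mice, which held for 7.25% of all probe sets. In young kidneys Sirt3 and Sirt5 rose and Nmnat1 fell. There 2 of 7 rose against 10.1% of all probe sets, 1 fell against 9.54%, and none reached 1.5-fold against 5.31%. The same 3 probe sets did not overlap between the diets, against 17.2% of all. With so few members, these counts are given as a description of the genes one by one. The median log2 fold change was 0.14 over the 7 probe sets and 0.00 over all probe sets in aged kidneys, and 0.07 and 0.00 in young kidneys. The plot of member levels by mouse shows each array.

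**Figure D1:**
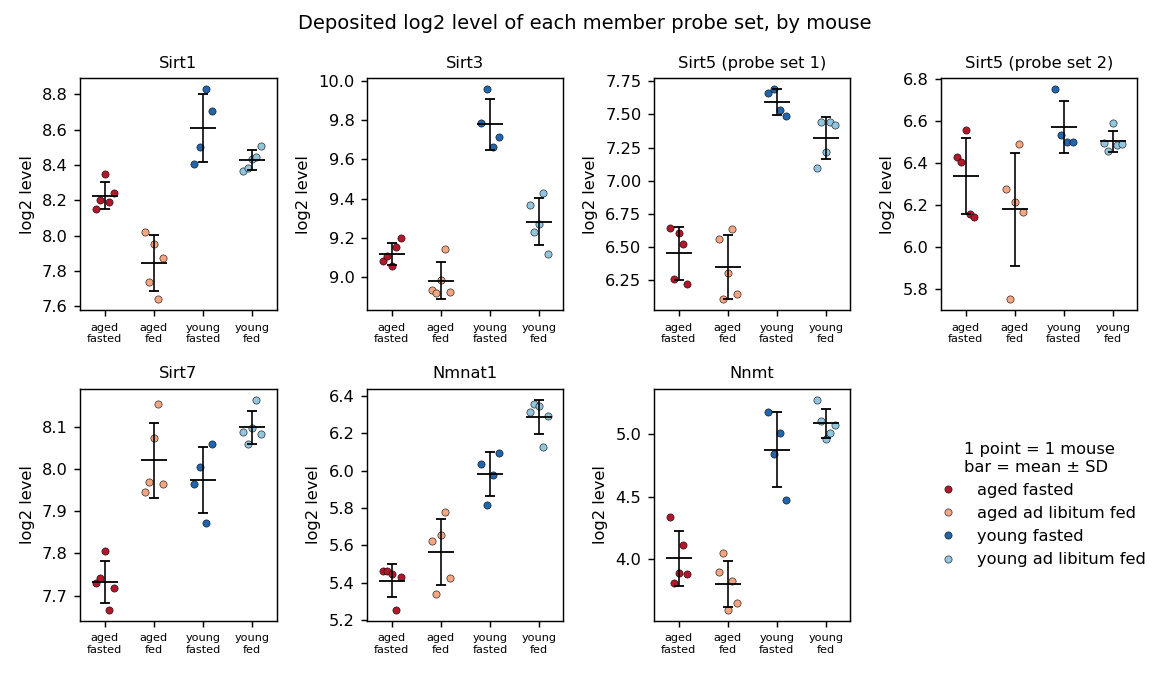
Log2 level (vertical axis, a separate range in each panel) of the 7 member probe sets in each mouse, by group, with mean and SD. Fasted and ad libitum fed mice do not overlap for Sirt1 and Sirt7 in aged kidneys and for Sirt3, the first Sirt5 probe set and Nmnat1 in young kidneys.

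Sirt1, the founding mammalian sirtuin, which deacetylates histones and transcription factors, was read by probe set 1418640_PM_at. Its log2 levels were 8.15, 8.20, 8.35, 8.19 and 8.24 in aged fasted mice, against 8.02, 7.74, 7.95, 7.64 and 7.87 in aged ad libitum fed mice. Each aged fasted mouse lay above each aged ad libitum fed mouse. The group means were 8.23 ± 0.08 in aged fasted and 7.85 ± 0.16 in aged ad libitum fed kidneys (SD, n = 5 each). The log2 fold change was 0.38 (SE 0.08), a 1.30-fold rise with a limma adjusted p = 0.0142. In young kidneys the levels were 8.41, 8.50, 8.83 and 8.70 in fasted mice, against 8.36, 8.39, 8.43, 8.45 and 8.51 in ad libitum fed mice. Fasted mice 343 and 344 stood above all ad libitum fed mice and the other 2 fasted mice lay among them. The young log2 fold change of 0.18 (SE 0.08) did not pass the test (limma adjusted p = 0.171).

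Sirt3, the main deacetylase of mitochondrial proteins, had the largest fold change of the 7 probe sets, in young kidneys. Probe set 1417892_PM_a_at read 9.78, 9.96, 9.66 and 9.71 in young fasted mice, against 9.37, 9.23, 9.27, 9.43 and 9.12 in young ad libitum fed mice. The lowest fasted mouse lay above the highest ad libitum fed mouse. The means were 9.78 ± 0.13 in young fasted kidneys (SD, n = 4) and 9.28 ± 0.12 in young ad libitum fed kidneys (SD, n = 5). The log2 fold change was 0.50 (SE 0.08, 95% interval 0.32 to 0.67), a 1.41-fold rise with a limma adjusted p = 0.00129. Its interval was the one among the 7 probe sets, in either age, that reached past 1.5-fold. In aged kidneys the levels were 9.09, 9.11, 9.06, 9.15 and 9.20 in fasted mice, against 8.94, 8.92, 8.99, 9.14 and 8.92 in ad libitum fed mice. Ad libitum fed mouse 40 fell within the fasted range and its 4 group mates below it. The aged log2 fold change was 0.14 (SE 0.07, 95% interval 0.00 to 0.28), which did not pass the test (limma adjusted p = 0.286).

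Sirt5, a mitochondrial enzyme that removes succinyl, malonyl and glutaryl groups, was read by 2 probe sets that differed. The brighter one, 1428915_PM_at, read 7.66, 7.69, 7.53 and 7.49 in young fasted mice, against 7.10, 7.44, 7.22, 7.44 and 7.42 in young ad libitum fed mice. The fasted mice lay above the ad libitum fed mice by a narrow margin, and the log2 fold change was 0.27 (SE 0.09; limma adjusted p = 0.0475). This call was lost in 11 of 17 other settings, with adjusted p up to 0.134. In aged kidneys the same probe set read 6.65, 6.26, 6.61, 6.53 and 6.22 in fasted mice, against 6.56, 6.11, 6.30, 6.64 and 6.15 in ad libitum fed mice. These ranges overlapped almost entirely, with a log2 fold change of 0.10 (SE 0.12). The second probe set, 1428916_PM_s_at, had a log2 fold change of 0.16 (SE 0.13) in aged and 0.07 (SE 0.07) in young kidneys. It spanned 6.14 to 6.56 in aged fasted, 5.75 to 6.49 in aged ad libitum fed, 6.50 to 6.75 in young fasted and 6.46 to 6.59 in young ad libitum fed mice. Its groups overlapped in both ages, so the rise of Sirt5 in young kidneys rests on 1 of its 2 probe sets.

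Sirt7, the nucleolar sirtuin, which acts on ribosomal DNA transcription and histone H3, was the one measured sirtuin that fell. Probe set 1424238_PM_at read 7.73, 7.74, 7.81, 7.67 and 7.72 in aged fasted mice, against 7.95, 7.97, 8.07, 8.15 and 7.96 in aged ad libitum fed mice. The groups did not overlap, and the means were 7.73 ± 0.05 in aged fasted and 8.02 ± 0.09 in aged ad libitum fed kidneys (SD, n = 5 each). The log2 fold change was -0.29 (SE 0.06; limma adjusted p = 0.0181), and without aged fasted mouse 41 it was -0.27 with an adjusted p = 0.0561. In young kidneys the levels were 7.963, 8.003, 7.873 and 8.058 in fasted mice, against 8.088, 8.058, 8.098, 8.164 and 8.083 in ad libitum fed mice. The highest young fasted mouse was level with the lowest ad libitum fed one. The young log2 fold change was -0.12 (SE 0.06), which did not pass the test (limma adjusted p = 0.167).

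Nmnat1, the nuclear enzyme that joins nicotinamide mononucleotide to ATP to give NAD, fell in young kidneys. Probe set 1429819_PM_at read 6.03, 5.82, 5.97 and 6.10 in young fasted mice, against 6.31, 6.36, 6.34, 6.13 and 6.29 in young ad libitum fed mice. Ad libitum fed mouse 349 came closest to the fasted mice without reaching them. The means were 5.98 ± 0.12 in young fasted kidneys (SD, n = 4) and 6.29 ± 0.09 in young ad libitum fed kidneys (SD, n = 5). The log2 fold change was -0.31 (SE 0.07; limma adjusted p = 0.0118). In aged kidneys the levels were 5.46, 5.46, 5.45, 5.25 and 5.43 in fasted mice, against 5.62, 5.34, 5.66, 5.78 and 5.42 in ad libitum fed mice. The ad libitum fed mice enclosed 4 of the 5 fasted mice, and the aged log2 fold change was -0.15 (SE 0.09; limma adjusted p = 0.402).

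Nnmt, which spends S-adenosylmethionine to methylate nicotinamide, did not pass the test in either age. Probe set 1432517_PM_a_at read 4.34, 3.81, 3.89, 4.11 and 3.89 in aged fasted mice, against 3.90, 4.05, 3.60, 3.82 and 3.65 in aged ad libitum fed mice. It read 5.17, 4.84, 5.01 and 4.48 in young fasted mice, against 5.27, 5.10, 4.96, 5.01 and 5.07 in young ad libitum fed mice. Both pairs of groups overlapped, and the levels lay not far above the array medians. The log2 fold change was 0.20 (SE 0.11; limma adjusted p = 0.386) in aged and -0.21 (SE 0.12; limma adjusted p = 0.297) in young kidneys. Both 95% intervals, -0.05 to 0.45 in aged and -0.48 to 0.06 in young kidneys, lay within 1.5-fold in either direction. Without aged fasted mouse 33 the aged log2 fold change was 0.12. Without young fasted mouse 344 the young one was -0.08.

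The fasting effects were then set against each other between the ages in one fit of all 19 arrays. The difference, aged effect minus young effect, passed the limma threshold for 0 of the 7 probe sets, against 1.95% of all probe sets, and the ordinary linear model also gave 0. At an unadjusted limma p of at most 0.05 there were 2, Sirt3 and Nnmt. Of all 17097 named genes, each at its brightest probe set, 2618 had an unadjusted limma p below 0.05. Sirt3 had a difference of -0.36 on the log2 scale (95% interval -0.57 to -0.14; limma adjusted p = 0.0765), the smallest p of the 7. Over 25 other settings this adjusted p ranged between 0.0535 and 0.172. Nnmt had a difference of 0.41 (95% interval 0.04 to 0.78; limma adjusted p = 0.294). Over 25 other settings the Nnmt difference ranged between 0.28 and 0.51. The remaining 5 differences lay between -0.17 and 0.20, each with a 95% interval that includes 0. A change that passed the test in one age only, as for Sirt1, Sirt3, Sirt5, Sirt7 and Nmnat1, is thus not shown to differ between the ages. The plot of fasting effects sets both ages beside their difference.

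**Figure D2:**
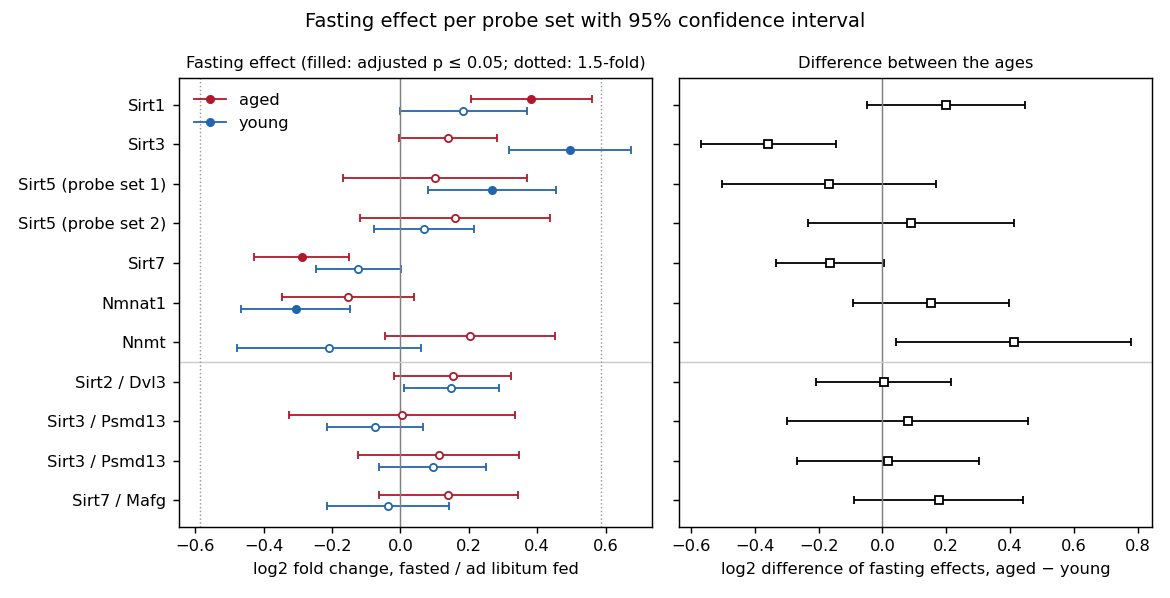
Log2 fold change, fasted over ad libitum fed, per probe set with its 95% confidence interval in aged and young kidneys (left panel, filled where adjusted p is at most 0.05, dotted lines at 1.5-fold) and the difference aged minus young (right panel). The 4 rows under the grey line are probe sets shared with a second gene. No point lies beyond a dotted line. In the right panel the interval of Sirt3 lies wholly below 0 and that of Nnmt wholly above 0. These intervals are not adjusted, and neither difference passed after adjustment (limma adjusted p = 0.0765 and 0.294).

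The 4 shared probe sets did not change in either age. The probe set of Sirt2, the mainly cytosolic sirtuin, also names Dvl3, a Wnt signal transducer encoded on another chromosome, and had a log2 fold change of 0.15 in aged (SE 0.08; limma adjusted p = 0.332) and 0.15 in young kidneys (SE 0.06; limma adjusted p = 0.137). Dvl3 at its own probe set was at 0.00 and 0.03 in aged and young kidneys, with every mouse below the array medians of its age. The 2 probe sets shared by Sirt3 and Psmd13 were at 0.01 and 0.11 on the log2 scale in aged kidneys and at -0.07 and 0.09 in young ones. All group means of the second one, from 3.21 in aged to 3.69 in young kidneys, lay below the array medians of their age. Psmd13 alone was at 0.10 in aged and -0.10 in young kidneys, so of the 2 genes on either side of the 84 bases shown above, Sirt3 at its own probe set was the one that passed the test. The probe set shared by Sirt7 and Mafg was at 0.14 in aged and at -0.04 in young kidneys, and Mafg alone at -0.07 in each. Sirt4, a mitochondrial sirtuin outside the 10 genes and looked up after their values were known, was at 0.01 (SE 0.08) in aged and -0.18 (SE 0.08; limma adjusted p = 0.163) in young kidneys.

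Around the members, 41 genes in 5 lists of NAD metabolism were measured at the brightest probe set that names them alone. In aged kidneys 2 of them rose and 5 fell, and in young kidneys 8 rose and 10 fell. Over all 17097 named genes 4.32% rose and 4.84% fell in aged kidneys, and 10.7% rose and 12.5% fell in young kidneys. The median log2 fold change of the 41 genes was -0.01 in aged and -0.03 in young kidneys, and that of all genes -0.01 in each. The difference between the ages passed the threshold for 4 of the 41 genes, against 2.44% of all named genes. The plot of NAD metabolism genes gives every one of them.

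**Figure D3:**
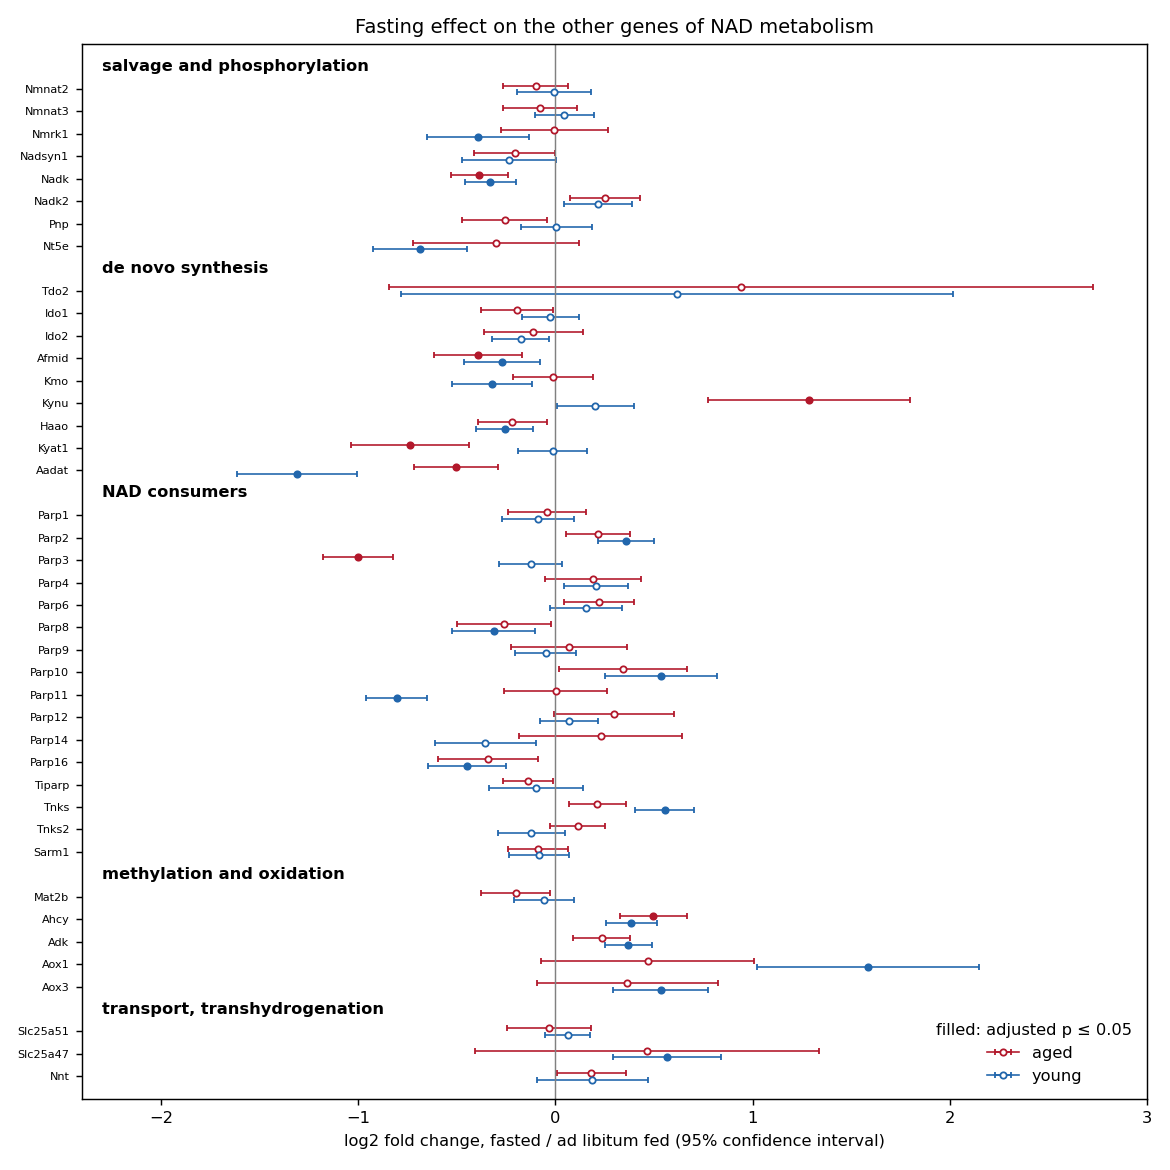
Log2 fold change, fasted over ad libitum fed, with 95% confidence interval in aged and young kidneys for the 41 measured genes of the 5 NAD metabolism lists (filled where adjusted p is at most 0.05). Kynu stands out to the right in aged kidneys and Aox1 in young kidneys, and Aadat to the left in young kidneys. The intervals of Tdo2 are the widest.

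The salvage and phosphorylation list had 8 of 10 genes measured, of which none rose and 1 fell in aged kidneys and none rose and 3 fell in young kidneys. Over all named genes 4.32% rose and 4.84% fell in aged kidneys, and 10.7% rose and 12.5% fell in young kidneys. Nadk, the cytosolic kinase that turns NAD into NADP, fell in both, by 0.39 on the log2 scale in aged (limma adjusted p = 0.00421) and by 0.33 in young kidneys (limma adjusted p = 0.00224). Nt5e, a cell surface nucleotidase that yields nucleosides such as adenosine, fell by 0.69 in young kidneys and had a log2 fold change of -0.30 in aged kidneys, which did not pass the test. Nmrk1, nicotinamide riboside kinase, fell by 0.39 in young kidneys and was at -0.01 in aged kidneys. Nmnat2 and Nmnat3, the other two enzymes of the Nmnat1 step, changed in neither age, with log2 fold changes between -0.10 and 0.05. The Nmrk1 call was lost, with a limma adjusted p up to 0.0854, without any one of young ad libitum fed mice 346, 347 and 350 or young fasted mice 339, 340 and 343. The aged count of falls was 2 without ad libitum fed mouse 34, and the young count of rises was 1 without ad libitum fed mouse 346.

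The tryptophan route, in which tryptophan becomes kynurenine and then quinolinate, had 9 of 11 genes measured. In aged kidneys 1 rose and 3 fell, where 4.32% of all named genes rose and 4.84% fell. In young kidneys none rose and 4 fell, where 10.7% of all rose and 12.5% fell. Kynu, kynureninase, which carries the route towards quinolinate, read 6.97, 6.07, 6.87, 6.23 and 6.14 in aged fasted mice, against 5.36, 4.95, 5.30, 5.76 and 4.49 in aged ad libitum fed mice. All fasted mice were above all ad libitum fed mice, with a log2 fold change of 1.29 (SE 0.24; limma adjusted p = 0.00596). This change stayed between 1.12 and 1.43 when each aged mouse was left out in turn. Whether liver RNA has a part in it was not tested. In young kidneys Kynu was at 0.20 (SE 0.09), and the difference between the ages, 1.08, narrowly missed the threshold (limma adjusted p = 0.0517). Its levels in young mice, 4.16 to 4.69, lay near the array medians.

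The 2 measured aminotransferases, which divert kynurenine to kynurenic acid, both fell, Kyat1 in aged kidneys and Aadat in both ages. Kyat1 read 6.870, 7.368, 7.211, 7.074 and 6.996 in aged fasted mice, against 7.997, 7.948, 7.545, 7.517 and 8.200 in aged ad libitum fed mice. The groups did not overlap, with a log2 fold change of -0.74 (SE 0.14; limma adjusted p = 0.00667), while in young kidneys it was -0.01 (SE 0.08). Aadat read 10.07, 10.93, 10.74 and 10.49 in young fasted mice, against 11.93, 11.83, 11.90, 11.77 and 11.92 in young ad libitum fed mice. It fell by 1.31 (SE 0.14; limma adjusted p = 6.72e-05) in young kidneys and by 0.50 (SE 0.10; limma adjusted p = 0.00845) in aged kidneys. Both effects differed between the ages, by -0.72 for Kyat1 (limma adjusted p = 0.0332) and 0.81 for Aadat (limma adjusted p = 0.0201). The Kyat1 difference no longer passed, with an adjusted p up to 0.0635, without any one of 11 of the 19 mice. These were young ad libitum fed mice 346, 348 and 350, young fasted mice 339, 340, 343 and 344, aged ad libitum fed mice 34 and 36, and aged fasted mice 41 and 42.

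The other falls on this route were smaller. Afmid, the formamidase that releases kynurenine, fell by 0.39 in aged (limma adjusted p = 0.0383) and by 0.27 in young kidneys (limma adjusted p = 0.0494). Its levels, 3.39 to 4.16 in aged and 3.98 to 4.65 in young mice, lay near the array medians. Both calls were fragile. The aged one was lost, with an adjusted p up to 0.0964, without any one of 8 of the 10 aged mice, all but fasted mice 33 and 41. The young one was lost, with an adjusted p up to 0.137, without any one of ad libitum fed mice 347, 348 and 350 or fasted mice 339, 343 and 344. Kmo, which hydroxylates kynurenine, fell by 0.32 and Haao, which makes the precursor of quinolinate, by 0.26 in young kidneys. In aged kidneys Kmo was at -0.01 and Haao at -0.22, which did not pass. The young count of 4 falls became 2 without any one of ad libitum fed mice 347, 348 and 350 or fasted mice 339 and 344. Tdo2, the dioxygenase that opens the route in liver, did not pass in either age. It was at 7.87 in aged fasted mouse 33, against 2.68 to 2.88 in the other 4 aged fasted mice and 2.58 to 3.23 in aged ad libitum fed mice. The liver transcript Alb, albumin, read 12.6 in mouse 33, against 5.41 to 7.33 in the other 4 aged fasted mice and 5.50 to 8.86 in aged ad libitum fed mice. In young fasted mouse 339 Tdo2 was at 6.73, against 2.67 to 3.79 in the other young fasted mice. It spanned 2.92 to 4.29 in young ad libitum fed mice. Alb read 9.94 in mouse 339, against 7.61 to 8.81 in the other young fasted mice and 6.72 to 9.50 in young ad libitum fed mice. Whether liver RNA on the arrays of mice 33 and 339 has a part in the level of Tdo2 was not tested.

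Among nicotinamide methylation and oxidation genes, 5 of 6 were measured, and 1 rose in aged and 4 rose in young kidneys, with no fall. The shares of all named genes that rose were 4.32% in aged and 10.7% in young kidneys, and 4.84% and 12.5% fell. Ahcy, which clears the S-adenosylhomocysteine left by methyl transfer, rose in both, by 0.50 on the log2 scale in aged (limma adjusted p = 0.00242) and 0.38 in young kidneys (limma adjusted p = 0.000887). Adk, adenosine kinase, rose by 0.37 in young kidneys and was at 0.23 in aged kidneys (limma adjusted p = 0.0555). Aox1, an aldehyde oxidase that oxidises methylated nicotinamide, read 6.25, 5.46, 5.76 and 4.53 in young fasted mice, against 3.81, 3.90, 4.06, 3.89 and 3.93 in young ad libitum fed mice. The fasted mice spread widely but all lay above the ad libitum fed mice, with a log2 fold change of 1.58 (SE 0.26; limma adjusted p = 0.00122). This change remained between 1.34 and 1.91 when each young mouse was left out in turn. Alb read 9.94, 8.58, 8.81 and 7.61 in the same fasted mice, in the same order, and 6.72 to 9.50 in young ad libitum fed mice. Whether liver RNA has a part in the Aox1 rise was not tested. In aged kidneys Aox1 was at 0.47 (SE 0.25; limma adjusted p = 0.354), with its highest level, 4.25, in mouse 33. Aox3, a related oxidase, rose by 0.53 in young kidneys and was at 0.36 in aged kidneys, which did not pass. Its levels were 3.62 to 4.00 in young fasted and 2.86 to 3.35 in young ad libitum fed mice. All of these, and the young ad libitum fed levels of Aox1, lay below every young array median. In aged fasted mice Aox3 read 4.02 in mouse 33 and 2.67 to 2.96 in the others. Mat2b, a regulatory subunit of the enzyme that makes S-adenosylmethionine, changed in neither.

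**Figure D4:**
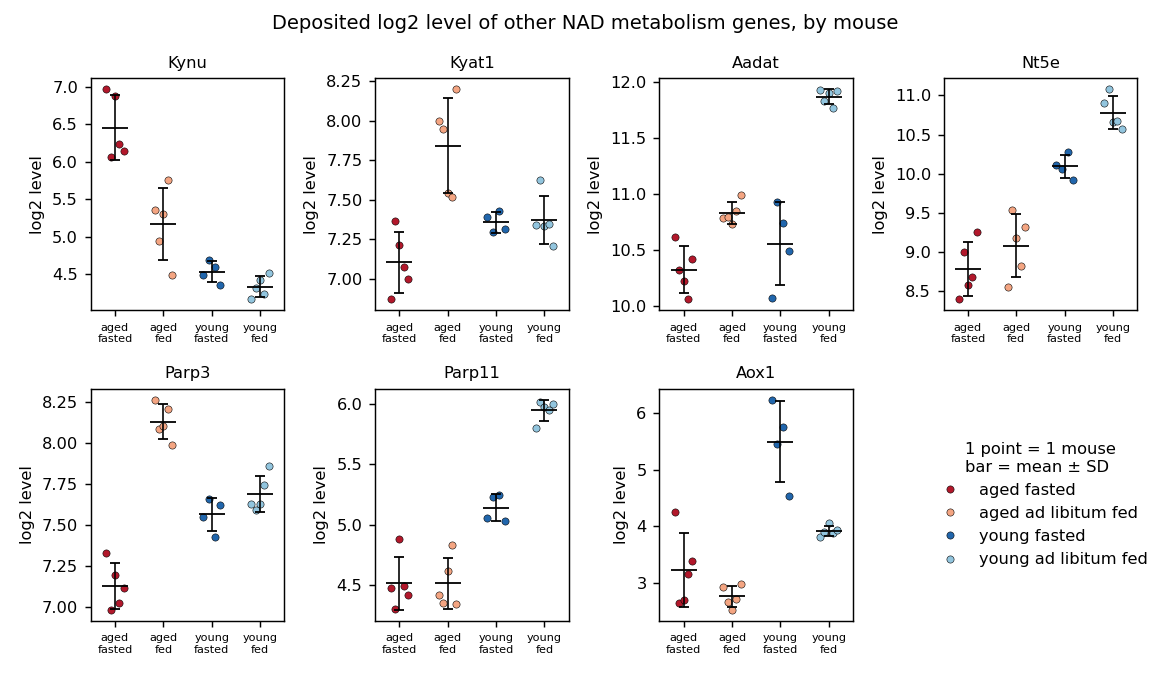
Log2 level (vertical axis, a separate range in each panel) in each mouse, by group with mean and SD, for the 7 genes of the NAD metabolism lists that changed by 1.5-fold or whose fasting effect differed between the ages. The diets are apart in aged kidneys for Kynu, Kyat1, Aadat and Parp3, and in young kidneys for Aadat, Nt5e, Parp11 and Aox1.

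Other enzymes that consume NAD were mainly poly- and mono-ADP-ribosyltransferases, with 16 of 18 genes measured. Of all named genes 4.32% rose and 4.84% fell in aged kidneys, and 10.7% rose and 12.5% fell in young kidneys. Of these 16 genes none rose and 1 fell in aged kidneys, and 3 rose and 3 fell in young kidneys. The 1 that fell in aged kidneys was Parp3, which acts in the repair of DNA breaks, at 6.98 to 7.33 in aged fasted mice, against 7.99 to 8.26 in aged ad libitum fed mice. Its young log2 fold change of -0.13 did not pass, and the effects of the ages differed by -0.88 (limma adjusted p = 0.000299). Parp11, a mono-ADP-ribosyltransferase, did the reverse. It read 5.06, 5.23, 5.25 and 5.03 in young fasted mice, against 5.80, 6.01, 5.97, 5.95 and 6.00 in young ad libitum fed mice. That is a log2 fold change of -0.80 (SE 0.07; limma adjusted p = 1.91e-05), against 0.00 (SE 0.12) in aged kidneys, and the difference was 0.80 (limma adjusted p = 0.00671). In young kidneys Parp8 and Parp16 fell by 0.31 and by 0.45, and Parp2, Parp10 and the tankyrase Tnks rose by 0.36, 0.53 and 0.55. The Parp8 call was lost, with a limma adjusted p up to 0.104, without any one of ad libitum fed mice 347, 348 and 350 or fasted mice 339, 343 and 344. Parp1, the main poly-ADP-ribosyltransferase, was at -0.04 in aged and -0.09 in young kidneys and passed in neither. Of the 3 measured mitochondrial transport and transhydrogenation genes, the carrier Slc25a47 rose by 0.57 in young kidneys and the others did not pass. Without young ad libitum fed mouse 350 that count was 2. In aged kidneys Slc25a47 was at 0.46, which did not pass and ranged between -0.01 and 0.63 with a mouse left out. Whether liver RNA has a part in the values of Slc25a47 was not tested.

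Regulators of sirtuins included 10 genes, all measured, none of which changed in aged kidneys. In young kidneys 2 rose and 3 fell, where 10.7% of all named genes rose and 12.5% fell. Foxo3, a forkhead factor linked to Sirt1 transcription, rose by 0.53, and Prkaa2, a catalytic subunit of the energy sensor AMPK, by 0.20. Prkaa1, the other catalytic subunit, fell by 0.25, and Hic1, a repressor of SIRT1 known from human cells, by 0.35. Elavl1, an RNA-binding protein known in human cells to stabilise the SIRT1 transcript, read 6.74, 7.07, 7.18 and 6.73 in young fasted mice, against 7.84, 7.90, 7.72, 7.47 and 7.67 in young ad libitum fed mice. All fasted mice were lower, with a log2 fold change of -0.79 (SE 0.11; limma adjusted p = 0.000599), and in aged kidneys it was -0.20 (SE 0.10; limma adjusted p = 0.288). The Prkaa2 call, 1 of the 2 rises, was lost without any one of young ad libitum fed mice 347, 348 and 349 or young fasted mice 339, 343 and 344. The Prkaa1 call was lost without any one of mice 347, 350, 339 and 340, and the Hic1 call without any one of mice 346, 348, 349, 350, 340 and 343, so that without mouse 350 or 340 the count of falls was 1.

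Proteins that sirtuins act on had 12 of 15 genes measured. Of all named genes 4.32% rose in aged and 10.7% in young kidneys. Of these 12 genes, 2 rose and none fell in each age. They were Glud1, the mitochondrial glutamate dehydrogenase, with a log2 fold change of 1.17 in aged and 1.13 in young kidneys, and Acadl, the long-chain acyl-CoA dehydrogenase, with 0.46 in aged and 0.29 in young kidneys. Both are known targets of mitochondrial sirtuins. Idh2, Sod2 and Tfam, also mitochondrial, passed in neither age, with log2 fold changes between -0.13 and 0.18.

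Markers of other cell types moved with diet in the young kidneys in which Sirt3, Sirt5 and Nmnat1 changed. For the counts that follow, 10.7% of all 17097 named genes rose and 12.5% fell in young kidneys. In aged kidneys 4.32% rose and 4.84% fell. Of 9 macrophage and neutrophil markers, 6 fell in young and 1 in aged kidneys. Their median level spanned 5.38 to 5.75 with fasting, against 5.97 to 6.30 with ad libitum feeding, in young kidneys. In aged kidneys it spanned 4.97 to 5.81 with fasting, against 5.56 to 5.76 with ad libitum feeding. The 5 measured of 6 brown adipocyte markers had a median level of 3.76 to 7.30 in young fasted mice, highest in mouse 339, and of 3.43 to 3.91 in young ad libitum fed mice. Of them 2 rose and 1 fell in young kidneys, and none rose and 1 fell in aged kidneys. The aged median level was 3.53 to 6.59 with fasting, highest in mouse 41, and 3.94 to 7.54 with ad libitum feeding, highest in mouse 40. None of the 4 measured of 6 white adipocyte markers passed in either age. Their median level was also highest in mice 339, 41 and 40 in their groups. Of 8 measured liver markers, 3 rose and 1 fell in young kidneys, with a median level of 6.90 to 8.62 in fasted and 6.17 to 7.80 in ad libitum fed mice. Of 6 fibroblast markers, 2 rose and 2 fell there, with a median level of 5.16 to 5.83 in fasted and 4.80 to 5.17 in ad libitum fed mice. The kidney markers were lower with fasting in young kidneys, where 3 of 7 fell and none rose, with a median level of 11.43 to 11.67 in fasted and 11.74 to 12.04 in ad libitum fed mice. In aged kidneys 2 of the 7 kidney markers fell and none rose. Without mouse 339 the young log2 fold change was 0.49 for Sirt3, -0.32 for Nmnat1 and 0.24 for Sirt5, and the Sirt5 call was then lost (limma adjusted p = 0.111). In aged kidneys the 8 measured of 10 liver markers had a median level of 5.19 to 10.7 in fasted mice and of 5.04 to 7.93 in ad libitum fed mice, and none passed the test. Without mouse 33 the aged log2 fold change of Sirt1 was 0.40 and that of Sirt7 -0.29. Without mouse 41 they were 0.39 and -0.27, and the Sirt7 call was then lost (limma adjusted p = 0.0561). The part of any of these cell types in the changes of the members was not tested in either age. Leaving out 1 mouse does not test it. The defining steroidogenic genes of the adrenal cortex, next to the kidney, had a median level of 2.71 to 3.39 on all arrays, below every array's median.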

How the data were processed

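Kidney RNA of 19 mice was measured with 1 array each. The authors background-corrected and normalized the arrays with the RMA algorithm through an online pipeline whose version is not given in the sources used here. They deposited log2 values for 45141 probe sets. Since the medians of the arrays depend on age, the ages seem to have been normalized apart. From these values, limma 3.58.1 in R 4.3.3 fitted aged and young arrays separately, and all 19 arrays in one fit of 4 group means for the difference between ages. Tests were two-sided, adjusted by the Benjamini-Hochberg method across the 45141 probe sets. The scripts were tested on simulated data. Of the probe sets, 28898 had 1 gene symbol in the annotation, 551 had several and 15692 had none listed. The brightest probe set over all arrays that names a gene alone stood for it. Named beyond the members were up to 4 genes per list that changed by 1.5-fold or differed between ages, and small counts were named after their values were seen. The 3 genes most like a member were to be named for members changed by 1.5-fold, of which there were 0. Members and gene lists were chosen with earlier results of these data known, and mouse numbers are those of the labels. Alternatives were an ordinary linear model (the methods' test), one fit of all arrays, array weights, a trended robust variance prior, quantile normalization, median centring, removal of the 40% of probe sets of lowest level, the mean of a gene's probe sets, folds of 1.2 and 2, and leaving out each mouse in turn. Sequences are from RefSeq tables on GRCm38.p6, with 250 bases before each start searched for motifs. Comparisons of levels between ages, and measurements other than the arrays, were not made.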

Additional observations from a re-analysis of the deposited data

Results flagged for a closer look

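Of 64 groups of arrays checked, over 16 probe sets or genes, 7 held an array far from its group mates by Dixon's gap ratio. Chance alone gives about 1 in 20 groups. The second Sirt5 probe set had such arrays in young fasted mouse 339, at a level of 6.75 with a gap of 0.854 of the group's range, and in young ad libitum fed mouse 348, at 6.59 with a gap of 0.719. Nmnat1 had low arrays in aged fasted mouse 41, at 5.25 with a gap of 0.861, and in young ad libitum fed mouse 349, at 6.13 with a gap of 0.729. Parp11 was low in young ad libitum fed mouse 346, at 5.80 with a gap of 0.711. Glud1 was low in aged fasted mouse 33, at 11.62 with a gap of 0.774, and high in young ad libitum fed mouse 346, at 11.40 with a gap of 0.716.

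The fasting effect differed between the ages, aged minus young, for 4 of the genes named above. Such a difference was among the reasons for naming a gene, so this count follows in part from the choice. Of all 17097 genes at their brightest probe set, 2.44% differed. The differences were 0.81 for Aadat (limma adjusted p = 0.0201), -0.72 for Kyat1 (limma adjusted p = 0.0332), -0.88 for Parp3 (limma adjusted p = 0.000299) and 0.80 for Parp11 (limma adjusted p = 0.00671). Age, strain and body weight cannot be told apart in these differences. The Kyat1 difference no longer passed without any one of 11 of the 19 mice.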

How the results depend on the processing

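No member gene turned direction in any setting tried. With a mouse left out, uncalled log2 fold changes took either sign for Kyat1 in young kidneys (-0.05 to 0.05) and, in aged kidneys, for Parp11 (-0.09 to 0.08), Nmrk1 (-0.10 to 0.10), Kmo (-0.06 to 0.05), Prkaa2 (-0.12 to 0.01) and Slc25a47 (-0.01 to 0.63). The aged count of changed members, 2, was also 2 in 16 of 17 alternatives and ranged between 1 and 2 with a mouse left out, the lower value without aged fasted mouse 41, where Sirt7 had a limma adjusted p = 0.0561. The young count, 3, ranged between 2 and 3 in every alternative. With a minimum of 1.2-fold in place of 1.5-fold, 2 member probe sets were called in aged and 3 in young kidneys, among 2819 and 7869 of all 45141 probe sets, and with 2-fold none. The count of differences between ages was 0 in all 25 alternatives. Over its alternatives the adjusted p spanned 0.00387 to 0.0422 for Sirt1 in aged, 6.36e-05 to 0.0107 for Sirt3 in young and 0.00413 to 0.0346 for Nmnat1 in young kidneys. The rise of Sirt5 in young kidneys was lost with the ordinary model (adjusted p = 0.103), one fit of all arrays (0.134), median centring (0.0746), the mean of its probe sets (0.065) and without any one of 7 mice. Nnmt, Afmid and, in young mice, Kynu lay near the array medians. Below them lay Aox3 (all but aged fasted mouse 33), ad libitum fed Aox1 and the probe set of Dvl3 alone. At such levels signal over background limits what a fold change can show. No paired analysis was possible because each mouse has its own number and no number is shared between groups.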
